A study of Mus musculus with 4 samples.

Results

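The genes described here encode the MCM helicase and the factors that license origins of DNA replication. The 10 members are Mcm2, Mcm3, Mcm4, Mcm5, Mcm6, Mcm7, Mcm10, Cdc6, Cdt1 and Orc1, chosen by name from 22180 measured genes. Each is represented by the array row whose platform annotation gives its symbol alone, and each had 1 such row. Another 2 rows, annotated to Mcm7 together with a microRNA gene, were not used.

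RNA of whole pancreas was profiled on Affymetrix arrays, from 8-week-old mice, of which 2 were wild type and 2 Ifrd1 null (n = 2 arrays per group). All 4 mice had received cerulein, a cholecystokinin analog that injures the enzyme-secreting acinar cells, at 100 µg/kg in 6 intraperitoneal injections per day on alternate days. Tissue was taken on day 5, a time chosen for the proliferative phase of the injury response, so both genotypes are injured and uninjured pancreas is not analysed here. Ifrd1 encodes a transcriptional co-regulator. How the null allele was made, the strain and whether deletion is limited to any cell type are not given in the labels.

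Before a cell copies its DNA, the origin recognition complex, of which Orc1 is a subunit, marks sites on chromatin and recruits Cdc6 and Cdt1. These load a ring made of Mcm2, Mcm3, Mcm4, Mcm5, Mcm6 and Mcm7, and the loaded ring is the core of the helicase that later unwinds the DNA. Mcm10 acts at the next step, when the loaded ring is activated. Geminin, the product of Gmnn, blocks Cdt1 so that an origin is not licensed again in the same cycle. Genes of this group are well-known targets of the E2F transcription factors and serve as markers of cells that are preparing to replicate.

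The targeted gene and the tissue matched the labels. Ifrd1 read 9.04 and 9.07 in the 2 wild-type arrays but 6.99 and 7.09 in the 2 null arrays (log2 expression level). Its null values still lay above the array median, and the source of that remaining signal was not tested. Of the listed acinar markers 11 of 14 were measured, and all 11 lay above the array median in the 4 arrays. The genotypes also differed in sex-linked genes: Xist, transcribed from the inactive X chromosome, read 2.56 and 3.54 in wild type and 10.2 and 9.58 in the null, and the Y-linked gene Uty read 6.41 and 6.40, then 2.25 and 2.36. Genotype and sex as read from these genes cannot be told apart in any difference below. Wild type 1 stood apart in intestinal epithelium markers. Its Lgals4, a galectin of gut epithelium, was at 7.24 against 3.97 to 4.31 in the other arrays.

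Most of the helicase and licensing genes read lower in the null pancreas, but no member passed the test over all genes. Of the 10 members 9 had a lower mean in the null, where 52.6% of all genes did. The same 9 were lower in both null arrays than in either wild-type array, where 19.7% of all genes were. The median difference over the members was -0.28 (log2, null minus wild type), a level 1.21-fold lower, beside -0.01 over all genes. With the members' own differences taken array by array against the wild-type mean, the median was -0.27 in Ifrd1 null 1 and -0.29 in Ifrd1 null 2, and 0.02 and -0.02 in wild type 1 and 2, which mirror each other around 0 by construction. Except for Mcm2 and Orc1, whose null arrays read the same, single members differed more between the null arrays than these medians do, in both directions. The gaps ran from -0.26 (Mcm3, null 1 minus null 2) to 0.18 (Cdc6). Over the members the median absolute gap was 0.11 between the null arrays and 0.07 between the wild-type arrays.

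In limma, 0 members passed at adjusted p under 0.05, beside 1 gene or 0.00451% of all genes, and the members' adjusted p lay between 0.721 and 0.903. That 1 gene was the Y-linked Uty (limma, adjusted p = 0.0206). The targeted gene Ifrd1, 4.05-fold lower, did not pass either (limma, adjusted p = 0.138), so a member that fails this threshold is not shown to be unchanged. At unadjusted p under 0.05 there were 4 members, Mcm4, Mcm5, Mcm7 and Cdt1, all lower in the null, and 0 were higher, beside 3.63% of all genes lower and 3.27% higher at that threshold. Without Ifrd1 null 1 the count was 1 member, Mcm7. Of 13 alternatives, unadjusted p stayed under 0.05 in 13 for Mcm7, in 11 each for Mcm4 and Mcm5, which missed it without either null array, and in 6 for Cdt1. Genes with higher levels leaned toward lower values in the null in general: among the 11090 genes above the median level, 67.3% had a difference below 0, 29.1% were lower in both null arrays than in both wild-type arrays and 5.41% were lower at unadjusted p under 0.05, and their median difference was -0.07. The smallest p that an exact two-sided permutation test of a single gene could reach with these 4 arrays is 0.333, so none is reported.

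**Figure D1:**
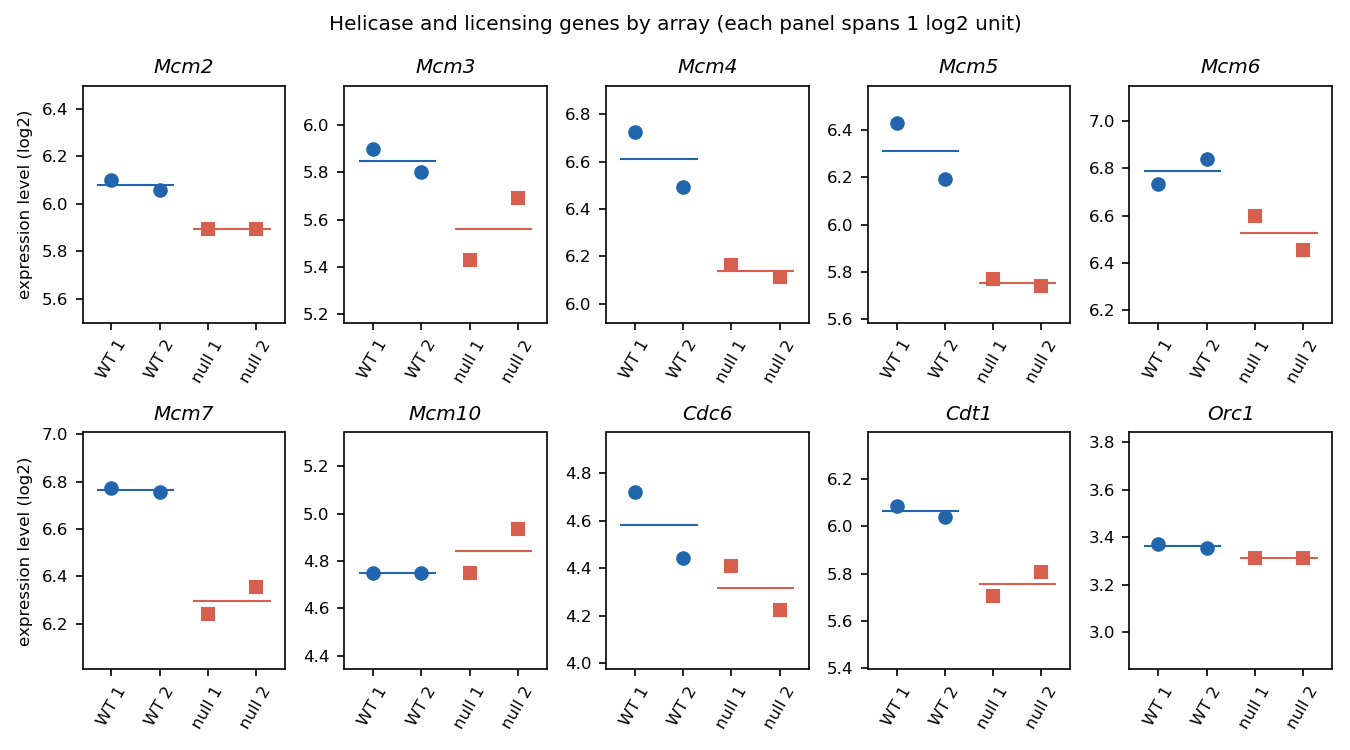
Expression level (log2, vertical axis) of each member in wild type 1 and 2 (circles) and Ifrd1 null 1 and 2 (squares), with horizontal lines at the group means. Each panel spans 1 log2 unit around its own gene, so distances but not positions can be compared between panels. Both squares lie below both circles for 9 of 10 genes, and Mcm10 is the exception.

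Among the ring subunits, Mcm5, Mcm4 and Mcm7 had the widest separation between genotypes. Mcm5 read 6.43 and 6.19 in wild type and 5.77 and 5.74 in the null. The null arrays nearly coincided, and the lower wild-type array stood 0.42 above the higher null array. The difference was -0.56 ± 0.13 (log2, SE), 1.47-fold lower, with a 95% interval from -0.90 to -0.22 (limma, unadjusted p = 0.00964 and adjusted p = 0.721). Of all genes, 0.92% had a smaller unadjusted p. The Mcm5 difference was -0.44 without wild type 1 and -0.68 without wild type 2.

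Mcm7 read 6.77 and 6.76 in wild type and 6.24 and 6.36 in the null. Its wild-type arrays differed by only 0.02, and the groups were separated by 0.40. The difference was -0.47 ± 0.11 (SE), 1.38-fold lower, with an interval from -0.75 to -0.18 (limma, unadjusted p = 0.00944, adjusted p = 0.721). Mcm4 read 6.73 and 6.49 in wild type and 6.17 and 6.11 in the null, again without overlap. Its difference was -0.47 ± 0.13 (SE), 1.39-fold lower, with an interval from -0.81 to -0.13 (limma, unadjusted p = 0.0175, adjusted p = 0.721). For Mcm4 it was -0.35 without wild type 1 and -0.59 without wild type 2. Mcm4, Mcm6 and Mcm7 together form the part of the ring long known to unwind DNA on its own in vitro.

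The other 3 ring subunits had smaller differences whose intervals reached past 0. Mcm3 was at 5.90 and 5.80 in wild type and at 5.43 and 5.69 in the null, and the gap between its null arrays (0.26) was nearly as large as its difference of -0.29 ± 0.14 (SE, interval -0.65 to 0.08), which was -0.16 without Ifrd1 null 1. Mcm6 was at 6.73 and 6.84 in wild type and at 6.60 and 6.45 in the null, a difference of -0.26 ± 0.12 (SE, interval -0.57 to 0.05). Mcm2 was at 6.10 and 6.06 in wild type and at 5.89 in both null arrays, a difference of -0.19 ± 0.10 (SE, interval -0.45 to 0.08). All 6 ring subunits were thus lower in both null arrays than in both wild-type arrays, by mean differences between -0.56 and -0.19, and whether the subunits differ from each other in their shift was not tested.

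The loading factors followed with values of similar size. Cdt1, which delivers the ring to the origin, was at 6.09 and 6.04 in wild type and at 5.70 and 5.81 in the null. Its groups were 0.23 apart, each with a narrow spread. The difference was -0.31 ± 0.11 (SE), 1.24-fold lower, with an interval from -0.59 to -0.02 (limma, unadjusted p = 0.0399, adjusted p = 0.721). Its unadjusted p was above 0.05 with quantile normalization (limma, 0.080), cyclic loess (0.078), the replicate block (0.092) and no genes of equal values (0.061), and also without wild type 1 (0.098), wild type 2 (0.074) or Ifrd1 null 1 (0.069). Cdc6, the ATPase that loads the ring together with the origin recognition complex, was at 4.72 and 4.44 in wild type and at 4.41 and 4.22 in the null. Its wild-type arrays differed from each other by 0.28, more than the genotypes did, so its difference of -0.27 ± 0.15 (SE, interval -0.67 to 0.14) does not exceed the spread between replicates, and it was -0.13 without wild type 1 and -0.41 without wild type 2. Cdc6 also lay only slightly above the array medians of 4.08 to 4.15.

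Orc1 and Mcm10 differed least. Orc1 was at 3.37 and 3.35 in wild type and at 3.31 in both null arrays, a difference of -0.05 ± 0.10 (SE, interval -0.31 to 0.21). It lay below the array median in all 4 arrays, so a signal above background is not shown for it and the size of its difference cannot be read. Mcm10 was at 4.75 in both wild-type arrays and in Ifrd1 null 1 and at 4.94 in Ifrd1 null 2, a difference of 0.09 ± 0.12 (SE, interval -0.22 to 0.41). It was the 1 member not lower in the null, and its difference came from that last array alone, being 0 without it.

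Some of these rows held exactly the same value in more than 1 array. This was so within a group for Mcm2, Mcm10 and Orc1, as for 1516 of all genes (6.83%). Which step of the authors' processing produced it was not tested. The spread of such a gene within its group reads as 0, and its standard error then rests largely on the spread of other genes. With all such genes left out, the remaining 7 members had a median of -0.31, and 3 of them had unadjusted p under 0.05.

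**Figure D2:**
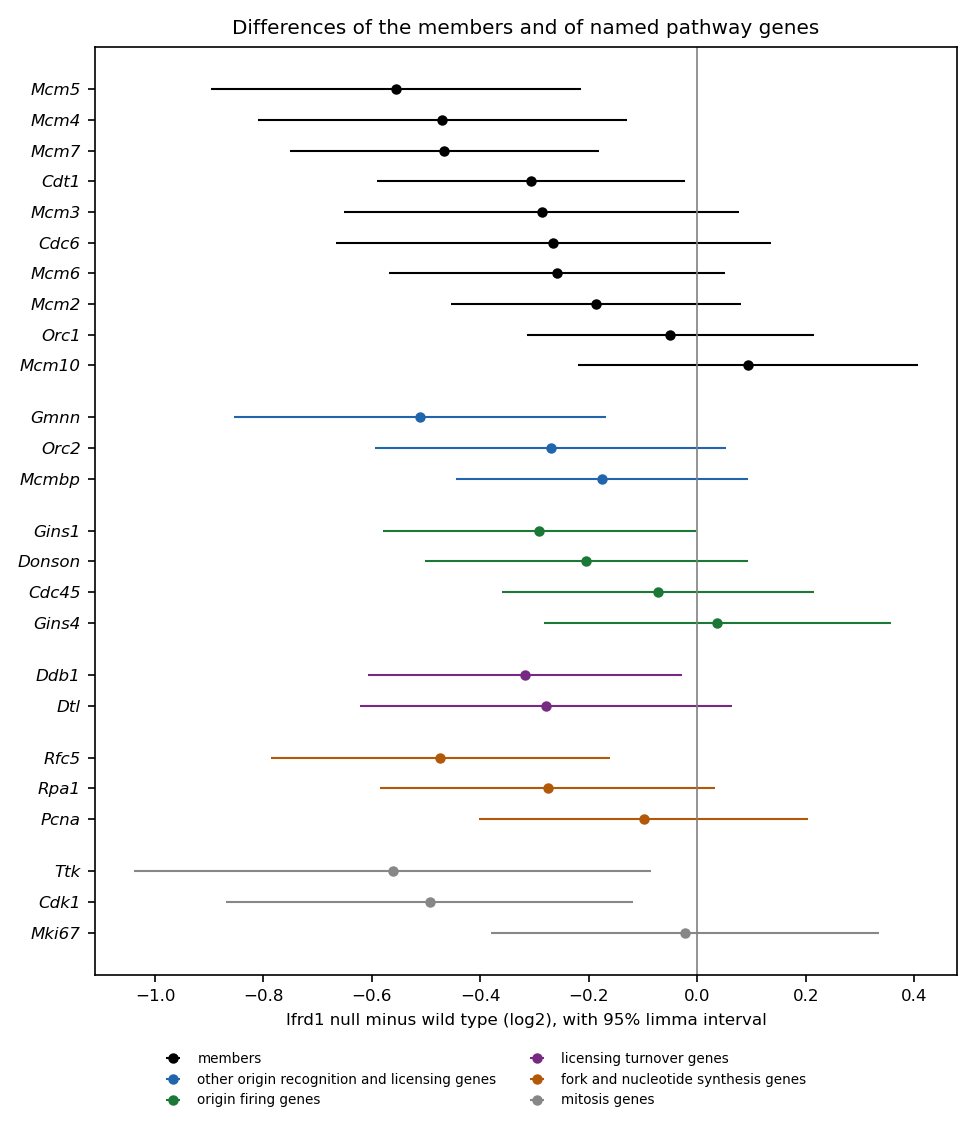
Difference between Ifrd1 null and wild type (log2, horizontal axis) with limma's 95% interval (bars) for the 10 members and for named genes of other replication and division lists, coloured by list. The intervals of Mcm4, Mcm5, Mcm7 and Cdt1 lie below 0, and those of the other 6 members cross it.

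Partners of the members in licensing also had mostly lower values. Of 12 other origin recognition and licensing genes, all 12 had a difference below 0, 10 were lower in both null arrays than in both wild-type arrays, and the median was -0.18. Over all genes these shares were 52.6% and 19.7%, and among genes above the median level 67.3% and 29.1%. In limma 0 passed after adjustment. At unadjusted p under 0.05, where 3.63% of all genes and 5.41% of those above the median level were lower, 1 did. That gene was Gmnn, the inhibitor of Cdt1, at 4.74 and 4.62 in wild type and at 4.06 and 4.27 in the null, a difference of -0.51 ± 0.13 (SE, limma unadjusted p = 0.0135, adjusted p = 0.721). The Gmnn arrays did not overlap, but Ifrd1 null 1 lay below the array median for this gene. Orc2, another subunit of the origin recognition complex, was at -0.27 ± 0.12, and Mcmbp, which binds MCM proteins, at -0.18 ± 0.10 (log2 differences, SE). Mcm9, a relative of the ring subunits with a role in repair, was at -0.01 ± 0.10.

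Genes that fire licensed origins were mixed. Of 16 measured, 9 were lower in the null and 7 were higher, and their median was -0.07. The share lower was 52.6% over all genes and 67.3% among those above the median level. Of these genes, 5 were lower and 2 higher in both null arrays than in both wild-type arrays, beside 19.7% and 16.1% of all genes. In limma 0 passed after adjustment. At unadjusted p under 0.05, where 3.63% of all genes were lower, there was 1. This was Gins1, a subunit of the GINS complex that joins the ring in the active helicase, at -0.29 ± 0.11 (SE), though it lay below the array median in all 4 arrays. Cdc45, the other partner of the active helicase, was at 4.46 and 4.58 in wild type and at 4.43 and 4.46 in the null, so its groups overlapped (-0.07 ± 0.11, SE). Gins4 was at 0.04 ± 0.12, below 0 once each array was centred on its median. Donson, a factor of helicase assembly, was at -0.21 ± 0.11. Cdc7, the kinase that triggers firing, was at 0.07 ± 0.10.

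Of the listed genes of ubiquitin ligases that remove Cdt1 and related factors, 7 were measured. All 7 had a difference below 0, with a median of -0.15, and 4 were lower in both null arrays than in both wild-type arrays, against the same 19.7% of all genes and 29.1% of those above the median level. A difference below 0 was found in 52.6% of all genes and 67.3% of those above the median level. In limma 0 passed after adjustment. At unadjusted p under 0.05, where 3.63% of all genes were lower, there was 1. That gene was Ddb1, the adaptor of the ligase that destroys Cdt1 in S phase. It was at 9.17 and 9.23 in wild type and at 8.83 and 8.94 in the null, a difference of -0.32 ± 0.11 (SE, limma unadjusted p = 0.0377, adjusted p = 0.721). Dtl, which brings Cdt1 to that ligase, was at -0.28 ± 0.13 (SE), and its null arrays both read 4.32. The Dtl difference was -0.16 without wild type 1 and -0.40 without wild type 2.

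The E2F and Rb family, which controls this group of genes, had a median difference of -0.04 in its own transcripts. None of its 13 members had unadjusted p under 0.05 (0 lower and 0 higher, limma). Among them 9 were lower in the null, and 5 were lower and 1 higher in both null arrays than in both wild-type arrays. The shares of all genes were 52.6%, 19.7% and 16.1%. Above the median level 67.3% of genes were lower in the null and 29.1% lower in both null arrays. E2f1, an activator, was at 5.29 and 5.10 in wild type and at 5.13 and 5.22 in the null. The null values lay within the range of the wild-type values, and the difference was -0.02 ± 0.12 (SE, interval -0.34 to 0.30). Rb1, the retinoblastoma protein, was at -0.15 ± 0.11, with the sign turning when its rows were averaged. E2f8, a repressor, was at 0.16 ± 0.12, and Tfdp1, the dimer partner of E2F proteins, at -0.05 ± 0.10, above 0 after quantile normalization or cyclic loess. Transcript levels do not show the activity of these proteins.

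Lists for the later steps of the cycle had medians nearer to 0 than that of the members. Of 25 measured genes of the replication fork and nucleotide synthesis, 20 were lower in the null, 12 were lower in both null arrays than in both wild-type arrays, and the median was -0.13. Over all genes these shares were 52.6% and 19.7%, and among genes above the median level 67.3% and 29.1%. Rfc5, a clamp loader subunit, was at 5.71 and 5.57 in wild type and at 5.11 and 5.23 in the null (-0.47 ± 0.12, SE, limma unadjusted p = 0.0126, adjusted p = 0.721). It was the 1 gene of this list at unadjusted p under 0.05. At that threshold 3.63% of all genes and 5.41% of those above the median level were lower. Rpa1, a subunit of the single-strand binding protein, was at -0.28 ± 0.12. Pcna, the sliding clamp, was at 7.46 and 7.40 in wild type and at 7.41 and 7.25 in the null, with overlapping groups (-0.10 ± 0.11, SE).

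Of 19 measured mitosis genes 11 were lower in the null and 8 were higher, the median was -0.02, and 4 were lower in both null arrays than in both wild-type arrays. The shares lower in the null and lower in both null arrays were 52.6% and 19.7% over all genes. Among those above the median level they were 67.3% and 29.1%. At unadjusted p under 0.05 (limma) 2 mitosis genes, Cdk1 and Ttk, were lower and 0 were higher, beside 3.63% and 3.27% of all genes. Mki67, the general marker of cycling cells, was at 6.79 and 6.91 in wild type and at 6.95 and 6.71 in the null. The null arrays lay on either side of the wild-type arrays, and the difference was -0.02 ± 0.13 (SE, interval -0.38 to 0.34), and above 0 after quantile normalization or cyclic loess. Cdk1, the kinase of mitotic entry, was at 5.39 and 5.44 in wild type and at 5.07 and 4.78 in the null (-0.49 ± 0.14, SE; limma unadjusted p = 0.0209, adjusted p = 0.721). Ttk, a spindle checkpoint kinase, was at -0.56 ± 0.18, and 3 of its 4 values lay below the array median. These medians stand beside the members' median of -0.28 as descriptions, and the difference between the lists was not tested.

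Whole pancreas mixes many cell types, and in such bulk samples fewer cells of a type and less RNA per cell cannot be told apart. The members' medians in the null arrays were set beside markers of the cells that the sample could hold. Lists whose medians lay further apart in the null arrays than those of the members included acinar cells (median -0.20 in Ifrd1 null 1 and 0.19 in Ifrd1 null 2, against the wild-type mean), B and plasma cells (1.06 and -0.42), macrophages (0.04 and -0.46), adipocytes (0.65 and -0.47), stellate cells and fibroblasts (0.05 and -0.49), intestinal epithelium (-0.76 and -0.46) and T and NK cells (0.41 and 0.15). T and NK markers had higher null means in 7 of 7 measured genes, where 52.6% of all genes had lower ones. At unadjusted p below 0.05 (limma) 1 was higher, beside 3.27% of all genes. Their summed level (log2 values added over the list) was 28.7 and 30.2 in wild type and 32.9 and 30.5 in the null. Only 1 of these 7 was higher in both null arrays than in both wild-type arrays, beside 16.1% of all genes. In all 4 arrays 2 of them lay above the array median and 2 below it, so several were dim. Germinal centre B cell markers were at -0.08 and -0.01, and 3 of the 5 measured lay below the array median in all 4 arrays. The same held for 2 of 7 intestinal markers. For the members the same measure gave -0.27 and -0.29.

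Endothelial, islet and duct markers were below the wild-type mean in both null arrays by their medians. So were the intestinal markers given above, at -0.76 and -0.46, with lower means in 5 of 7. Germinal centre B cell markers were below it by less. A lower mean in the null was found in 52.6% of all genes and 67.3% of those above the median level. Endothelial markers had lower means in 7 of 7 genes, with medians of -0.23 and -0.23, and their summed level was 44.0 and 44.1 in wild type and 42.3 and 42.4 in the null. Islet markers were lower in 5 of 7, with medians of -0.32 and -0.35 and summed levels of 58.3 and 57.2 against 56.1 and 55.8. Duct markers were lower in 5 of 7, with medians of -0.23 and -0.39 and summed levels of 52.6 and 52.3 against 51.4 and 50.7. The duct medians also lay further apart in the null arrays than those of the members. Lower in both null arrays than in both wild-type arrays were 6 endothelial, 4 islet, 3 duct and 4 intestinal markers. The members had 9 of 10, and all genes 19.7%. Another 2 islet markers and 1 intestinal marker were higher in both null arrays, beside 16.1% of all genes. At unadjusted p under 0.05 (limma), 2 endothelial, 4 islet, 2 duct and 2 intestinal markers were lower. The members had 4 there, and all genes 3.63%. The members themselves summed to 57.6 and 56.7 in wild type and to 54.3 and 54.5 in the null. The lowest value of any marker in any array was 1.77, below the array medians of 4.08 to 4.15, so a signal above background is not shown for every marker. The part of these cell types in the members' values was not tested. Intestinal markers were high in wild type 1, and without that array the members' median was -0.26.

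**Figure D3:**
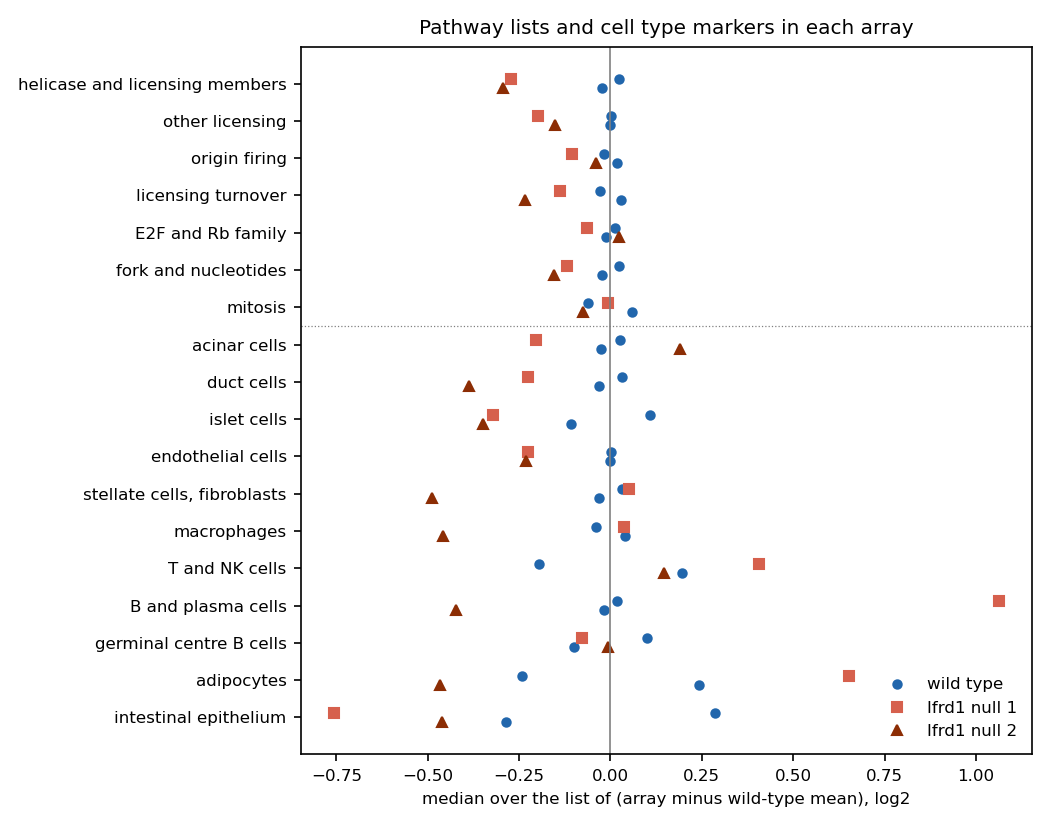
Median over each gene list of the array's value minus the wild-type mean (log2, horizontal axis), for wild type 1 and 2 (circles), Ifrd1 null 1 (squares) and Ifrd1 null 2 (triangles), with replication and division lists above the dotted line and cell type markers below it. The members sit at -0.27 and -0.29 in the null arrays, while B and plasma cell markers sit at 1.06 and -0.42.

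The promoters of the members were searched for short words of known regulatory motifs. RefSeq promoter windows (build GRCm38.p6), from 250 bases before to 50 after an annotated start, were at hand for 9 of the 10 members, as 10 windows because Mcm7 has 2 starts. The E2F word was any of TTTCGCGC, TTTGGCGC, TTTCCCGC and TTTGCCGC on either strand. It was found in 7 of the 9 genes, which were Mcm3, Mcm5, Mcm6, Mcm7, Cdc6, Cdt1 and Orc1, and in 2.26% of all 32851 windows (2.6% of genes). The windows of Mcm2 and Mcm10 held none of these letters. Among the partner lists, 3 of 10 other licensing genes with a window held it, 3 of 10 origin firing genes, 5 of 23 fork and nucleotide genes and 1 of 17 mitosis genes, the last being Cdk1. A match is a description of the sequence and not a shown binding site.

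The promoters of Mcm5, Mcm7 and Mcm6 are shown because the first pair had the smallest unadjusted p among the members and the third holds the most E2F words. Each line gives the 250 bases before the start, 5′ to 3′ on the gene's strand, with E2F words in capitals. In Mcm5 (chr8:75109259-75109508, plus strand) and at the first place in Mcm6 (chr1:128359706-128359955, minus strand), 2 words on opposite strands overlap and form 1 longer run. The Mcm7 window (chr5:138171884-138172133, minus strand) is that of its upstream start.
Mcm5: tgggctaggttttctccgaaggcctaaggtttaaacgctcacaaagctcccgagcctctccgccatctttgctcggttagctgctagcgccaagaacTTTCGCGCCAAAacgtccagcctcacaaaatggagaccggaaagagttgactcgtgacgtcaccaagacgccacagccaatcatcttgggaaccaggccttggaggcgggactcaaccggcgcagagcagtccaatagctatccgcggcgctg
Mcm7: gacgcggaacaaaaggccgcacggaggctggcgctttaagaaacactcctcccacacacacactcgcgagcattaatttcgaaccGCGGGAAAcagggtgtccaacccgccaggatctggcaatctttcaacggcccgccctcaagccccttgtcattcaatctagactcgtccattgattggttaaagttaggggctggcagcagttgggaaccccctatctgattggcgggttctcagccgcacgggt
Mcm6: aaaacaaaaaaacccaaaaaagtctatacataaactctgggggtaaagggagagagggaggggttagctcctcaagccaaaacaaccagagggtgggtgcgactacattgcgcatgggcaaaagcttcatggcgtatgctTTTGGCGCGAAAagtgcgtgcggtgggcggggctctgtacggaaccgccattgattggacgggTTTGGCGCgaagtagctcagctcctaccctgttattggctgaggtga

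In Mcm5 the overlapping words lay between 153 and 142 bases before the start. In Mcm6 the overlapping words lay between 110 and 99 bases before it and a further word between 47 and 40. In Mcm7 the word lay between 165 and 158 bases before the upstream start, and another was found in the bases after that start, while the window of its second start held none. The CCAAT box, the letters CCAAT on either strand, was in 7 of 9 members and 37.4% of all windows. The GC box, GGGCGG on either strand, was in 7 of 9 members and 35.7% of windows. The letters TATAAA were in 0 of 9 members and 13.6% of windows. Cdc6 had neither the CCAAT nor the GC box.

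**Figure D4:**
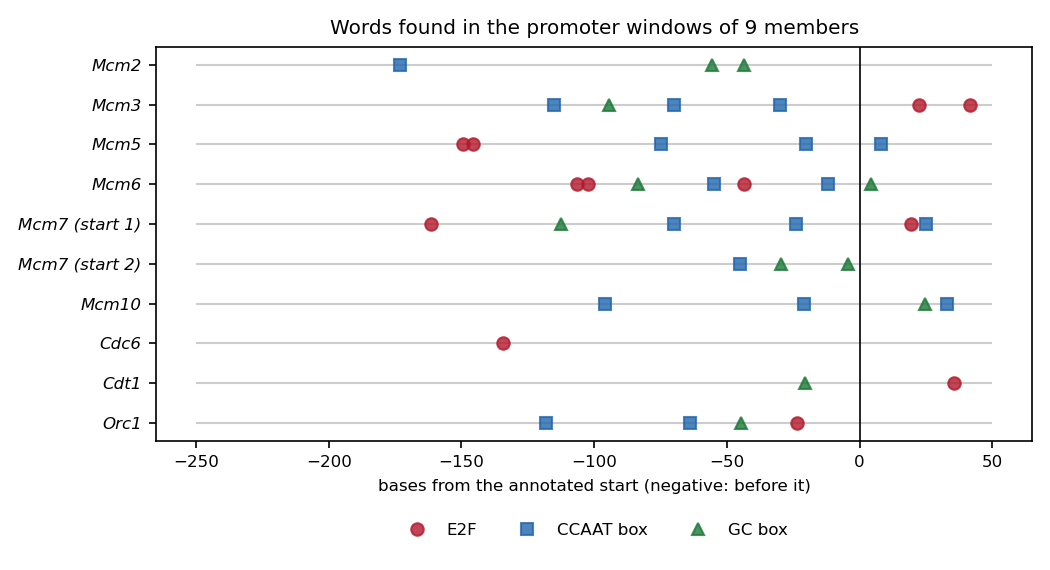
Positions of the E2F word (circles), CCAAT box (squares) and GC box (triangles) on either strand, in bases from the annotated start (horizontal axis), in the 10 promoter windows of 9 members. The grey lines mark the windows searched, from 250 bases before to 50 after the start. E2F words appear in 7 of the 9 genes, and in Mcm3 and Cdt1 only after the start.

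Genes that share a locus with a member were read as well. Ap4m1, a subunit of a vesicle adaptor complex, is transcribed from the opposite strand, and its promoter window shares 237 bases with that of the upstream Mcm7 start. It was at 7.99 and 7.78 in wild type and at 7.34 and 7.68 in the null, a difference of -0.37 ± 0.17 (SE, limma unadjusted p = 0.0842). Both null arrays lay below both wild-type arrays, and the difference was -0.20 without Ifrd1 null 1 and -0.55 without Ifrd1 null 2. Prkdc, the catalytic subunit of the DNA-dependent protein kinase and the neighbour of Mcm4, was at 5.77 and 5.78 in wild type and at 5.67 and 5.62 in the null, a difference of -0.13 ± 0.10 (SE). Mir106b, a microRNA gene located within Mcm7, overlapped between genotypes, with 4.56 and 4.25 in wild type and 4.61 and 4.25 in the null (0.02 ± 0.19, SE), and was below 0 under each other scaling tried. That row measures the locus, not a mature arm. The 5′ arm of Mir106b (RefSeq, GRCm38.p6, chr5:138165787-138165807, minus strand) is shown for reference with its seed, bases 2 to 8, in capitals.
mmu-miR-106b-5p: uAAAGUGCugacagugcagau

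The members lie on 8 chromosomes, with Mcm3 and Mcm6 on chromosome 1 and Mcm5 and Cdt1 on chromosome 8. None lies on chromosome 12, where Ifrd1 is, or on X or Y.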

How the data were processed

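Per the labels' protocols, biotin-labelled total RNA was run on Affymetrix arrays. The values are the authors' deposited values, 1 per row and array, read here as log2 levels because they lay between 0.218 and 13.9. The log base, background correction, probe summary and normalization are not given in the sources used here. Array medians were 4.08 to 4.15. Of 41345 rows, 23521 had 1 symbol, 1814 several and 16010 none here; a gene's row with the highest mean was kept (22180 genes), with no filter on dim rows.

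Groups were compared with limma 3.58.1 in R 4.3.3 (lmFit and eBayes, no covariates, Benjamini-Hochberg over all genes, threshold 0.05, two-sided), as null minus wild type, after the fit was tested on simulated data. Errors of differences are limma's moderated SE. The number of arrays limits precision. The labels call the arrays biological replicates without naming litter or day. Deviations of same-numbered arrays from their group means correlated with r = -0.04 over genes, so replicate numbers were not taken as pairs.

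The members and lists were chosen with earlier results of these data known. Named genes are the members, of each pathway list the pair of smallest unadjusted p and the gene with the highest mean, small lists whole, and Ifrd1, Pcna, Mki67, Gmnn and Cdc45. Mcm9, Cdc7 and E2f1 were added for their roles after their values were seen, as were the context genes Xist, Uty and Lgals4. Of 98 listed cell type markers 83 were measured, and 0 of 5 erythroid markers. Alternatives were quantile normalization, cyclic loess, median centring, a replicate block, trend and robust eBayes, only genes above the median level, averaged rows, no X or Y genes, each array left out and, added after seeing the data, no genes with equal values within a group.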

Additional observations from a re-analysis of the deposited data

How the results depend on the processing

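The count of members at adjusted p under 0.05 was 0 under every alternative run, and 4, 3 or 1 members had unadjusted p under 0.05. The members' median difference stayed below 0 throughout. Median centring gave -0.33. With 1 array left out the lowest value was -0.33, lacking wild type 2, and the highest was -0.26, lacking wild type 1. The count at unadjusted p under 0.05 ranged from 1 (without Ifrd1 null 1) to 3 members in these fits, which hold fewer samples. With the replicate number as a block, 3 members had unadjusted p under 0.05 and the median was -0.28. Of all genes at unadjusted p under 0.05, 52.6% were lower in the null, 71.5% with median centring and 82.2% among genes above the median level, a setting that holds 8 of the 10 members. Signs turned for 5 named genes outside the members, and the cause was not tested. Tfdp1 was at 0.032 with quantile normalization and 0.045 with cyclic loess, Mki67 at 0.049 and 0.057, and Mir106b at -0.016 and -0.024. Median centring gave -0.013 for Gins4 and -0.025 for Mir106b, and averaged rows gave 0.028 for Rb1. With 1 array left out, Mki67 lay between -0.14 and 0.10, Mir106b between -0.15 and 0.20 and Gins4 between -0.059 and 0.13.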
